A study of Homo sapiens with 6 samples.

Results

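Transcripts of 10 collagen genes, COL1A1, COL1A2, COL3A1, COL5A1, COL5A2, COL5A3, COL11A1, COL12A1, COL16A1 and COL8A1, were followed in TC28a2 cells given a control vector or an FAP overexpression vector. They were taken by symbol from the 28395 genes of the count table, and all 10 were found by their Entrez identifiers. TC28a2 is an immortalised human chondrocyte line, so all libraries come from a single line. FAP (fibroblast activation protein) is a membrane protease that cuts after proline and is known to act on gelatin, the unfolded form of collagen. Each group held 3 libraries of RNA taken 48 hours after transfection, and the control cells were transfected as well. The sources used here give neither the promoter that drives FAP nor the share of cells that took up the vector. Nothing in the labels tells whether replicates were separate cultures, and the p-values reflect only how far these libraries vary, a spread that may be technical.

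Collagen molecules are trimers of chains wound into a triple helix of repeated glycine triplets. Collagens I, III, V and XI form fibrils. Collagens I and III are typical of skin and of dedifferentiated or fibrous cartilage, and collagen I also of bone and tendon. Collagens V and XI start fibrils and limit their width. Collagens XII and XVI sit on or near fibrils, and collagen VIII is a short-chain collagen that forms networks. Cartilage fibrils are built on collagen II, with collagens XI and IX, and chondrocytes grown as a monolayer are known to exchange collagen II for collagen I.

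Gene counts per library ran from 5736056 to 13839743, and replicate 1 was the shallowest library of each group. FAP had 0, 11 and 5 counts in the controls and 1396, 3182 and 4733 in the FAP libraries, in accord with the label of each library. Of 13373 genes tested with edgeR's quasi-likelihood test, 30 (0.224%) had an adjusted p under 0.05, the threshold for a call, 13 of them higher and 17 lower in FAP libraries. FAP replicate 3 was the least like its group, its chi-square over degrees of freedom being 16.2 and 15.5 against FAP replicates 1 and 2, and 5.74 between those. The name chondrocyte comes from what is known of the line, and the markers bear it out poorly. Of 16 chondrocyte markers 5 had at least 10 counts in any library, and only SOX9 had them in every library. Summed, these markers ran from 27.9 to 36.7 CPM in controls and from 35.5 to 46.4 CPM in FAP libraries, nearly all of it SOX9. That gene was at 28.8 ± 5.31 and 37.4 ± 5.66 CPM, with overlapping groups and an adjusted p of 0.416. The 9 fibroblast and pericyte markers ran from 133 to 143 and from 131 to 145 CPM. Most of this came from PDGFRB and THY1, at 63.5 ± 7.08 and 57.4 ± 3.92 CPM in controls. RGS5 came next at 6.43 ± 0.440 CPM, and DCN and LUM were at 0.799 ± 0.451 and 1.04 ± 0.948 CPM. Of the 4 endothelial markers CDH5 was at 0 in every library. Their sum ran from 0.731 to 0.983 CPM in controls and from 1.84 to 2.55 CPM in FAP libraries, without overlap, mostly through PECAM1. That gene was at 0.444 ± 0.265 and 1.70 ± 0.260 CPM and was not called (1 to 24 counts a library, adjusted p = 0.293). It had every FAP library above the controls, as did 7.96% of all tested genes. The 6 immune markers summed to at most 18.7 CPM, mostly from CD68. Of the epithelial markers KRT8 and KRT18 were abundant (440 ± 34.5 and 939 ± 76.4 CPM in controls, SD, n = 3), while no library held more than 4 counts of EPCAM or CDH1. Whether any of these lists has a part in the collagen values was not tested.

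None of the collagen genes passed the test between the vectors, and the values of most were slightly higher with FAP. Of the 9 genes with enough counts to be tested (COL11A1 was not), 0 were called by edgeR, DESeq2 or limma-voom, against 0.224% of all genes by edgeR. The log2 fold change, FAP minus control, was positive in 7 of 9, against 50.7% of all genes, with a median of 0.16 against 0.00 over all genes tested. In 4 of 9, COL3A1, COL5A1, COL5A2 and COL12A1, every FAP library lay above every control, which held for 7.96% of all tested genes, and no collagen gene had every FAP library below the controls. Unadjusted edgeR p-values were under 0.05 for 3 of 9, COL3A1, COL5A1 and COL5A2, all with positive values, against 9.91% of all genes and 4.61% that were higher in FAP libraries. Scaled by library totals in place of TMM (trimmed mean of M values, edgeR's scaling for composition), the same 4 genes were separated, against 11.1% of all genes. Because the collagen genes were chosen with earlier results of these data known, these counts beside the shares of all genes are a description, not a test of the set. Levels below are TMM-scaled CPM (a gene's counts relative to the size of its library), adjusted p-values are from edgeR, and means are given ± SD with n = 3 per group. In RNA from a whole culture, fewer cells expressing a gene and less RNA per cell cannot be told apart.

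**Figure D1:**
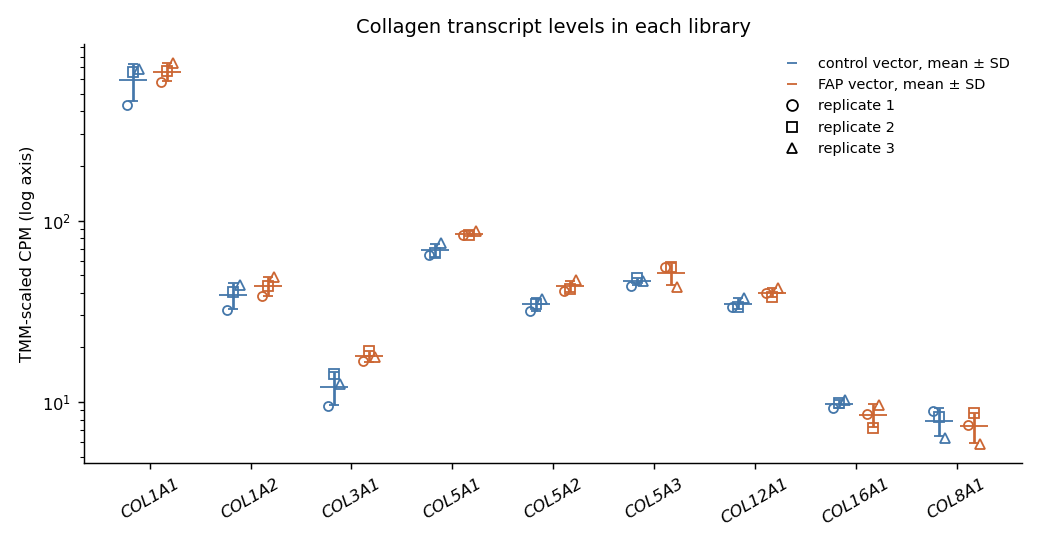
Level of the 9 tested collagen genes in each library, in TMM-scaled CPM on a log axis, with symbols for replicates and bars for mean ± SD. COL1A1 lies far above the others, at 434 to 733 CPM, and the FAP libraries lie above all controls in COL3A1, COL5A1, COL5A2 and COL12A1.

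Collagen I, the main fibril collagen of bone and skin, supplied most of the collagen counts. COL1A1, which encodes its alpha 1 chain (Entrez 1277; GRCh38.p14 chromosome 17, 50184101 to 50201631), was at 434, 661 and 679 CPM in control replicates 1, 2 and 3 and at 582, 666 and 733 CPM in the FAP libraries. The groups overlapped, and control replicate 1 lay well below the rest. Means were 591 ± 137 and 660 ± 76.1 CPM, a log2 fold change of 0.16 (SE 0.14, adjusted p = 0.746). The 95% interval of that change, from -0.13 to 0.45, allows a fold of 0.914 to 1.36. Without control replicate 1 the log2 fold change was -0.02. Counting error was between 1.01% and 2.05% of each COL1A1 value, against a coefficient of variation of 23.1% among controls.

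COL1A2, the alpha 2 chain of collagen I (Entrez 1278; chromosome 7, 94394895 to 94431227), followed the order of COL1A1 across libraries. It was at 32.0, 40.4 and 44.3 CPM in the controls and 38.3, 43.8 and 48.8 CPM in the FAP libraries. These ranges overlapped as well. Its log2 fold change stood at 0.16 (SE 0.13, adjusted p = 0.731, interval from -0.12 to 0.43), and ran from 0.05 without control replicate 1 to 0.27 without control replicate 3. It was 0.07 without FAP replicate 3.

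Collagen III forms fibrils together with collagen I in elastic and healing tissue. Its single chain, COL3A1 (Entrez 1281; chromosome 2, 188974373 to 189012746), had the largest log2 fold change of the 9 genes. It was at 9.498, 14.3 and 12.6 CPM in the controls and at 16.8, 19.1 and 17.8 CPM in the FAP libraries, with no overlap. Means were 12.1 ± 2.44 and 17.9 ± 1.15 CPM. The log2 fold change of 0.54 (SE 0.17, interval from 0.19 to 0.90) had an adjusted p of 0.276 and was not called. It was 0.42 without control replicate 1, the lowest value over 14 alternative analyses, and 0.67 without control replicate 2, the highest. The gene rested on 52 to 270 counts a library, and counting error alone was 13.9% at the lowest.

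**Figure D2:**
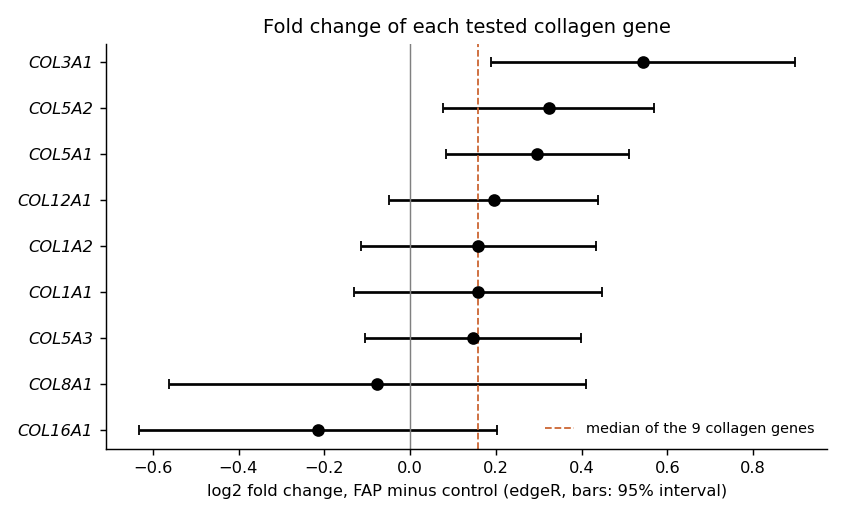
Log2 fold change, FAP minus control, of each tested collagen gene from edgeR, with bars for the 95% interval before adjustment and a dashed line at the median of 0.16. The intervals of COL3A1, COL5A2 and COL5A1 lie above 0, and those of the other 6 genes include 0.

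Collagen V is incorporated into collagen I fibrils and helps start them, mostly as a trimer of alpha 1 and alpha 2 chains. COL5A1 (Entrez 1289; chromosome 9, 134641803 to 134844843) was at 64.5, 66.3 and 75.0 CPM in the controls and at 83.1, 82.9 and 87.5 CPM in the FAP libraries. The FAP libraries lay close together and above every control. Means were 68.6 ± 5.64 and 84.5 ± 2.57 CPM, and the log2 fold change of 0.30 (SE 0.10, interval from 0.08 to 0.51) had an adjusted p of 0.326.

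COL5A2, the alpha 2 chain (Entrez 1290; chromosome 2, 189031898 to 189441111), lies next to COL3A1 on chromosome 2. It was at 31.8, 34.7 and 37.2 CPM in the controls and at 41.0, 42.2 and 46.9 CPM in the FAP libraries, again with no overlap. This gave a log2 fold change of 0.32 (SE 0.12, interval from 0.08 to 0.57, adjusted p = 0.358). COL3A1, COL5A1 and COL5A2 each kept a positive log2 fold change in all 14 alternatives, and their smallest adjusted p-values there were 0.142, 0.244 and 0.300.

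COL5A3, a further chain made in fewer tissues (Entrez 50509; chromosome 19, 9959561 to 10010504), showed no such separation. It was at 43.8, 48.4 and 46.3 CPM in the controls and at 55.7, 55.5 and 43.1 CPM in the FAP libraries. FAP replicate 3 was the lowest library of all 6, and the other 2 FAP libraries were the highest. With all libraries the log2 fold change came to 0.15 (SE 0.12, adjusted p = 0.727), 0.26 (adjusted p = 0.315) without FAP replicate 3 and 0.08 without FAP replicate 2.

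COL11A1, a chain of the cartilage fibril collagen XI (Entrez 1301; chromosome 1, 102876473 to 103108522), was near the limit of detection. It had 0, 1 and 4 counts in the controls and 0 in each FAP library, where a count of 0 allows up to 0.479, 0.212 and 0.222 CPM (3 counts, counting error only). Both groups lie about at this limit, so no fold is given. For COL2A1, the cartilage collagen, no library held more than 4 counts, and for COL9A1 none held more than 1.

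The fibril-associated and short-chain genes differed in sign. COL12A1 encodes collagen XII, which lies on the surface of collagen I fibrils (Entrez 1303; chromosome 6, 75084326 to 75206053). It was at 33.6, 33.3 and 37.7 CPM in the controls and at 39.9, 38.0 and 42.3 CPM in the FAP libraries. The groups did not overlap, but control replicate 3 and FAP replicate 2 almost met. Between groups the log2 fold change came to 0.20 (SE 0.12, interval from -0.05 to 0.44, adjusted p = 0.605).

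COL16A1 encodes collagen XVI, a minor collagen found with fibrils (Entrez 1307; chromosome 1, 31652263 to 31704017). It was at 9.32, 9.83 and 10.2 CPM in the controls and at 8.62, 7.20 and 9.63 CPM in the FAP libraries, which overlapped. Here the log2 fold change came to -0.21 (SE 0.20, interval from -0.63 to 0.20, adjusted p = 0.764), and ran from -0.33 without FAP replicate 3 to -0.10 without FAP replicate 2. COL8A1, a chain of collagen VIII (Entrez 1295; chromosome 3, 99638594 to 99799217), was at 8.95, 8.30 and 6.33 CPM in the controls and at 7.50, 8.68 and 5.85 CPM in the FAP libraries. Its log2 fold change was -0.08 (SE 0.23, adjusted p = 0.943) and changed sign in 3 of 13 alternatives. Both genes had from 47 to 130 counts a library, and the interval of COL8A1, from -0.56 to 0.41, allows a fold of 0.677 to 1.33.

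Promoter sequence was found for 5 of the 10 genes in RefSeq's table (GRCh38.p14), and 3 are shown. They were picked by the direction of values that were not called. COL5A1 and COL12A1 had the FAP libraries above all controls, and COL16A1 had a negative value with overlapping groups. Whether the sequence has a part in the values was not tested. Each run is the 250 bases before the annotated start, 5' to 3' on the gene's strand, with GC boxes in capitals (GGGCGG or CCGCCC, the core bound by SP1 family factors). The COL5A1 run is chr9:134641553-134641802 on the plus strand, the COL12A1 run chr6:75206054-75206303 and the COL16A1 run chr1:31704018-31704267, both on the minus strand.
COL5A1: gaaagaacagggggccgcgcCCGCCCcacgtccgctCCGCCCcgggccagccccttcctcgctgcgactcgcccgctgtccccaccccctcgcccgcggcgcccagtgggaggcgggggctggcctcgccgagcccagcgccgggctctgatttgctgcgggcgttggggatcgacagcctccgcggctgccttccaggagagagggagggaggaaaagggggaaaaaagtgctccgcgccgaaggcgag
COL12A1: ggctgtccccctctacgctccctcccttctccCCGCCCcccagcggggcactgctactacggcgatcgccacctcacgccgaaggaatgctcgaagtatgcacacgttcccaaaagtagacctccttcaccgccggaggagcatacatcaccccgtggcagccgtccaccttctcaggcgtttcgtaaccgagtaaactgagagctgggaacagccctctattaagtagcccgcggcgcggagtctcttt
COL16A1: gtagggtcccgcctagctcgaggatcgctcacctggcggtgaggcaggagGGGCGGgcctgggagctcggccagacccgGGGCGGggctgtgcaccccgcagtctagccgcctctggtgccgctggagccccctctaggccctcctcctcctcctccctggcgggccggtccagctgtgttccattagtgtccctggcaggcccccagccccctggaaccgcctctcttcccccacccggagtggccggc
COL5A1 and COL16A1 each hold 2 GC boxes and COL12A1 holds 1, none overlapping another. None of the 3 holds a CCAAT box (CCAAT or ATTGG) or TATAAA on either strand. Of the other 2 promoters found, COL5A3 holds 1 GC box and 1 CCAAT box and COL11A1 holds 3 and 1. Of 35116 promoters in the table, cut to the same length, 42.6% hold a GC box, 32.0% a CCAAT box and 10.7% TATAAA. A match is a description of these letters, not a binding site.

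Levels of different genes were set side by side per length and, since DRUG-seq as generally described reads mainly the 3' end of a transcript, where counts would not grow with length, also by CPM. Which scale is nearer to transcript numbers was not tested. Per length, COL1A1 led in the controls at 87.9 ± 20.3 CPM per kb of its longest GENCODE transcript. COL5A1, COL5A3 and COL1A2 followed at 8.10 ± 0.666, 7.48 ± 0.370 and 7.19 ± 1.17 CPM per kb, and neighbours in this order overlapped. COL5A2 at 4.88 ± 0.383, COL12A1 at 2.97 ± 0.208 and COL3A1 at 2.19 ± 0.440 CPM per kb did not overlap their neighbours above. COL16A1 at 1.71 ± 0.0783 CPM per kb overlapped COL3A1, and COL8A1 at 1.38 ± 0.239 was lowest without overlapping COL16A1. By CPM the order was the same but for COL12A1 and COL5A2, at 34.9 ± 2.43 and 34.6 ± 2.71 CPM, which changed places and overlapped each other and COL1A2, and COL5A1 at 68.6 ± 5.64 CPM no longer overlapped COL5A3 at 46.2 ± 2.28 CPM.

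All 10 genes together took 0.0637%, 0.0889% and 0.0964% of the counts in the controls and 0.0871%, 0.0986% and 0.107% in the FAP libraries, and COL1A1 was 65.0% to 72.1% of these collagen counts. Control replicate 1 stood low. It was the lowest of the 6 libraries for 5 of the 9 tested genes, and FAP replicate 3 was the highest for 5. The median deviation of the 9 genes from their own mean over all libraries was -0.24, -0.02 and -0.02 (log2) in the controls and 0.09, 0.12 and 0.20 in the FAP libraries. Replicate 1 was the lowest library of its group in both groups by this median and by the share of counts, and also the shallowest, at 5736056 and 6275038 counts; the part of depth in this was not tested. Without control replicate 1 the median log2 fold change of the 9 genes was 0.11, and without replicate 1 of both groups 0.12.

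**Figure D3:**
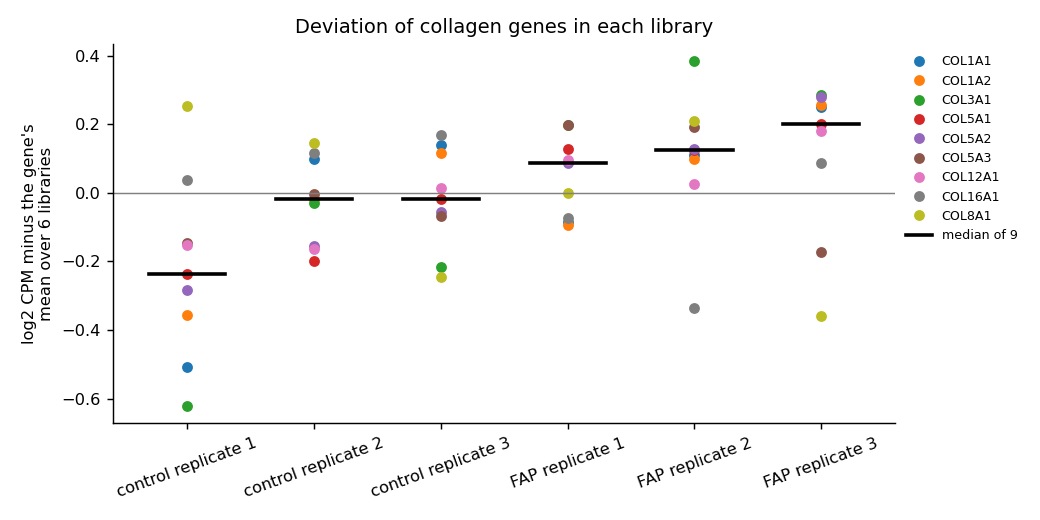
Log2 CPM of each tested collagen gene in each library minus that gene's mean over the 6 libraries, with a black bar for the median of the 9 genes. The median is lowest in control replicate 1, at -0.24, and highest in FAP replicate 3, at 0.20, while COL8A1, COL16A1 and COL5A3 do not follow it, COL5A3 and COL8A1 being lowest in FAP replicate 3.

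The balance between chains that share a trimer was read as a ratio of counts within each library; with 3 libraries a group, no difference in it could reach a p under 0.1. COL1A1 had 13.6, 16.3 and 15.3 counts for each COL1A2 count in the controls and 15.2, 15.2 and 15.0 in the FAP libraries. The FAP values lay within the control range. Mean ratios were 15.1 ± 1.40 and 15.1 ± 0.107, a log2 difference of 0.01 (two-sided exact permutation test over samples, p = 1, adjusted over both ratios p = 1). Per kb of transcript the control ratio was 12.1 ± 1.13. As background, the common collagen I molecule holds more alpha 1 than alpha 2 chains, but neither ratio is a measure of chain numbers. Neither scale was tested against transcript numbers.

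COL5A1 had 2.03, 1.91 and 2.02 counts for each COL5A2 count in the controls and 2.03, 1.96 and 1.86 in the FAP libraries. The groups overlapped, with a log2 difference of -0.02 (two-sided exact permutation test, p = 0.6, adjusted p = 1). Counts of COL3A1 for every 100 of COL1A1 were computed after the values of both genes had been seen and are a description. They were 2.19, 2.17 and 1.85 in the controls and 2.88, 2.86 and 2.42 in the FAP libraries, without overlap, and the difference was not tested. The same ratio for COL5A1 overlapped, at 14.9, 10.04 and 11.0 in the controls and 14.3, 12.4 and 11.9 in the FAP libraries.

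**Figure D4:**
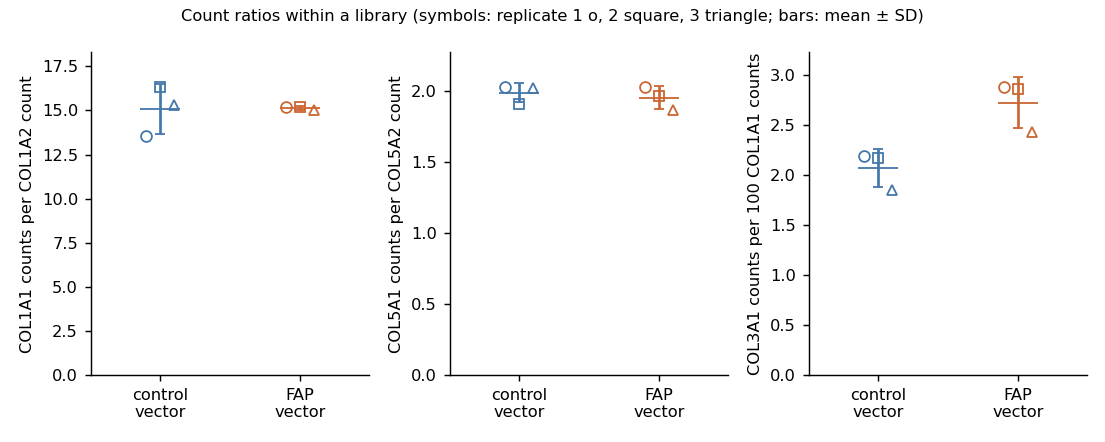
Ratios of raw counts within each library for COL1A1 to COL1A2, COL5A1 to COL5A2 and COL3A1 to 100 counts of COL1A1, with symbols for replicates and bars for mean ± SD, on axes that start at 0. Control and FAP libraries overlap in the first 2 panels and are separate in the last, where controls reach 2.19 and FAP libraries start at 2.42.

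Genes that build, modify, bind or cut collagen were read in the same fit, from lists chosen by function. Of 4 other fibrillar collagen genes only COL27A1 was tested (-0.14, adjusted p = 0.795; -0.05 to -0.29 with a library left out), and of 10 other fibril-associated and short-chain genes only COL14A1, a collagen close to collagen XII (0.20, adjusted p = 0.792; 0.08 to 0.30). Of 18 proteoglycans and fibril regulators 7 were tested, 0 were called in either direction, and the median log2 fold change was 0.17. BGN, biglycan, a small proteoglycan that binds collagen fibrils, was at 47.1, 52.5 and 61.6 CPM in the controls and 63.4, 99.7 and 69.3 CPM in the FAP libraries. These did not overlap, as in 7.96% of all tested genes, and BGN was the only 1 of the 7 above all controls. Its log2 fold change of 0.53 (SE 0.14, adjusted p = 0.189) was not called. It passed without the low-count filter (adjusted p = 0.00210) and on leaving out FAP replicate 1 (0.0472) or FAP replicate 3 (0.00341), and did not pass on leaving out any other library (0.268 to 0.679). Without FAP replicate 2, its highest library, the log2 fold change was 0.30 (adjusted p = 0.596). FBLN1, fibulin 1, was at 0.19 (adjusted p = 0.583).

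Among the genes that process and fold procollagen, 0 were called. Of 11 processing genes 7 were tested (median -0.08), with BMP1, the C-propeptide protease, at a log2 fold change of 0.14 and its relative TLL1 at -0.53 (adjusted p = 0.717 and 0.634). The TLL1 value rested on replicate 1 of both groups, being -0.04 without them, -0.24 without that of FAP and -0.33 without that of the control; it was -0.85 without FAP replicate 2. Of 27 folding, hydroxylation and crosslinking genes 26 were tested, 12 with positive values, and the median was -0.02. In 2 of the 26 every FAP library lay below the controls and in 2 above, near the 7.99% and 7.96% of all tested genes. COLGALT1, which adds galactose to collagen hydroxylysine, was at -0.25 (adjusted p = 0.434) with every FAP library below the controls, and LOX, lysyl oxidase, at -0.39 (adjusted p = 0.505), or -0.18 without control replicate 3. COLGALT1 was at -0.16 without FAP replicate 3.

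Collagen receptors had mostly negative values, 7 of 8 tested, with a median of -0.13 and 0 called. Of all tested genes 50.7% had positive values. ITGA2, the alpha 2 integrin chain that binds collagen I, was at 49.1, 42.4 and 49.8 CPM in the controls and 37.5, 36.4 and 33.4 CPM in the FAP libraries. MRC2, an endocytic receptor that takes up collagen fragments, was at 56.3, 72.5 and 66.8 CPM and 53.9, 52.5 and 50.6 CPM. In both, and in ITGA1, the FAP libraries lay below all controls, 3 of the 8 against 7.99% of all tested genes. The groups almost met in ITGA1, at 11.3, 12.3 and 11.6 CPM and 11.0, 10.5 and 11.0 CPM (log2 fold change -0.12, adjusted p = 0.860). Log2 fold changes were -0.40 (SE 0.12, adjusted p = 0.223) for ITGA2 and -0.32 (SE 0.11, adjusted p = 0.326) for MRC2.

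Of 12 genes listed as collagen-cleaving proteases 11 were tested and 2 were called, FAP itself, higher, and MMP1, lower, against 0.224% of all genes. The list median was -0.05, and the list also holds PREP and DPP4, prolyl peptidases that are not collagenases. FAP is the gene carried by the vector, so 1 of the 10 other tested members was called. MMP1, the interstitial collagenase that cuts collagens I and III, was at 23.7, 12.2 and 16.8 CPM in the controls and fell to 7.34, 7.55 and 9.04 CPM (log2 fold change -1.10, SE 0.22, adjusted p = 0.0341). This call was lost with library totals (adjusted p = 0.0567), with limma-voom (0.0691), and on leaving out control replicate 1 (0.278), FAP replicate 2 (0.180), control replicate 3 (0.232) or replicate 1 of both groups (0.285).

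Of 23 regulators of collagen genes, all tested, 0 were called and 16 had positive values (median 0.12). In 3 every FAP library lay above the controls and in 2 below, against 7.96% and 7.99% of all tested genes. The 3 above were TGFB1, SMAD3 and SMAD7, with SMAD3 at 0.20 and SMAD7 at 0.46 (adjusted p = 0.531 and 0.539). The 2 below were CCN2 and SCX, with SCX at -0.93 (adjusted p = 0.566, at most 15 counts). TGFB1, the main growth factor known to raise collagen I and V transcription, was at 84.8, 104 and 115 CPM in the controls and 117, 159 and 160 CPM in the FAP libraries. The groups did not overlap, though control replicate 3 and FAP replicate 1 almost met. Its log2 fold change of 0.52 (SE 0.13, adjusted p = 0.116) passed with DESeq2 (adjusted p = 0.0405), with the replicate number as a block (0.0289), without the low-count filter (6.77e-04) and on leaving out FAP replicate 1 (0.0230) or FAP replicate 3 (0.0240). It did not pass on leaving out any other library (adjusted p = 0.240 to 0.591). CCN2, a matrix protein of the same list, had the opposite sign, at 108, 111 and 127 CPM in the controls and 73.7, 93.0 and 95.9 CPM in the FAP libraries. Its log2 fold change was -0.39 (SE 0.11, adjusted p = 0.216), with an adjusted p of 0.0134 without FAP replicate 3 and of 0.387 to 0.622 without each other library.

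**Figure D5:**
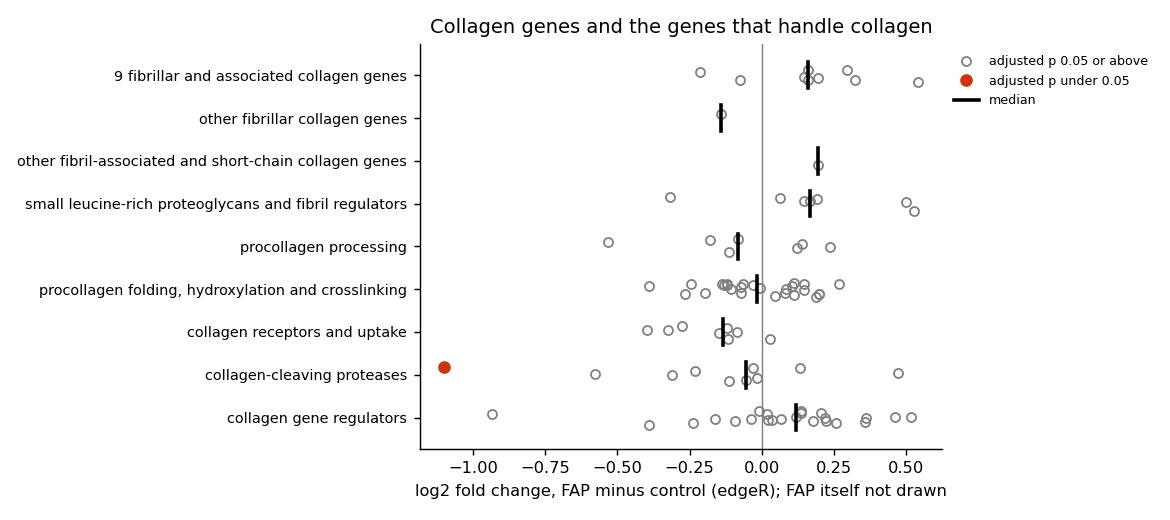
Log2 fold change, FAP minus control, of every tested gene in the collagen set and in 8 lists of genes that form, process, bind, cut or regulate collagen, with a bar at each median. MMP1 is the 1 called gene drawn (FAP, also called, lies off the axis), and the collagen set has its median at 0.16.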

How the data were processed

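RNA of 3 control-vector and 3 FAP-vector libraries was sequenced by DRUG-seq, per the labels. The authors deposited whole-number read counts per Entrez gene, not normalized; HISAT2, featureCounts, Subread and GRCh38 are named, per the submitters' processing notes. The sources used here state neither the strand setting nor how multiple alignments and molecular identifiers were treated. Symbols and positions came from RefSeq (GRCh38.p14; 27745 of 28395 identifiers matched), transcript lengths from GENCODE. No collagen gene studied overlapped another measured gene with more than 4 counts. Counts were tested with edgeR 4.0.16 (R 4.3.3; TMM, filterByExpr with minimum count 10 and total 15, two-sided quasi-likelihood F test, no covariate, Benjamini-Hochberg over 13373 genes, called under 0.05). A standard error is the log2 fold change divided by the square root of F. Alternatives used DESeq2 1.42.0, limma 3.58.1, other scalings, filters, a replicate block and left-out libraries; leaving out both replicates 1 was chosen after seeing the data. Named were the 10 collagen genes and FAP, and of each list the called members or, with none, the 2 with the smallest p. KRT8, KRT18, EPCAM, CDH1, CDH5, PECAM1, CD68, SOX9, COL2A1 and COL9A1 were named after their values were seen. So were PDGFRB, THY1, RGS5, DCN, LUM, ITGA1, SMAD3, SMAD7 and SCX. The members and lists were chosen with earlier results of these data known. The test was tried on simulated data. Limits cover counting error only. Figures were drawn with matplotlib 3.10.9.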

Additional observations from a re-analysis of the deposited data

How the results depend on the processing

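No collagen gene was called under any of the 14 alternatives, and the median log2 fold change of the 9 tested genes stayed positive, from 0.11 to 0.27 with 1 library left out (0.11 without control replicate 1, 0.27 without control replicate 3). With libraries left out the log2 fold change of COL1A1 ran from -0.021 to 0.27, negative only without control replicate 1, and that of COL8A1 from -0.24 to 0.082, positive on leaving out control replicate 1 (0.014), FAP replicate 3 or replicate 1 of both groups (0.0023). Genes called over all tested genes, 13 higher and 17 lower, became 54 and 98 without the low-count filter, 29 and 53 with DESeq2, 7 higher with limma-voom and 6 lower with library totals. With a library left out they ran from 1 to 109 higher and from 2 to 139 lower, both highest without FAP replicate 3. Called members became 1 for the proteoglycans without the filter (0 to 1 with a library left out), 1 for the proteases with library totals or limma-voom (1 to 3), and 1 for the regulators without the filter or with DESeq2 (0 to 3). The causes were not tested. The 2 chain ratios moved by less than 1 SD.

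With the replicate number as a block 16 genes were higher, 28 lower and 1 regulator was called, TGFB1; no collagen call changed. The labels do not say whether same-numbered libraries were handled together. Their deviations correlated over genes at -0.07, 0.10 and -0.01, and control replicate 1 correlated best with FAP replicate 3 (0.12). Correlations this weak, with 3 libraries a group, cannot settle whether the numbers pair the samples. At 47 to 130 counts a library, COL16A1 and COL8A1 are the least precise of the tested collagen genes.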
